A study of Sus scrofa with 4 samples.

Results

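The genes described here are the pig genes named ZNF and a number, the largest group of genes for C2H2 zinc finger proteins. A C2H2 finger is a short fold held by a zinc ion, and arrays of such fingers read DNA, or less often RNA, by sequence. Many ZNF proteins also carry a KRAB domain, which binds the corepressor TRIM28 and, through the histone methyltransferase SETDB1 and HP1 proteins, places repressive chromatin, mostly on transposable elements and at imprinted genes. Others lack KRAB and act in transcription activation, RNA processing, ribosome assembly or the spindle. Oocytes pass their ZNF transcripts to the embryo, which keeps its imprints and silences its transposons before its own genome is fully active.

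A gene was a member if its symbol was ZNF followed only by digits and its level was 1 FPKM or more in at least 2 of the 4 libraries. FPKM are fragment numbers scaled by transcript length and by the total of the library, so that levels can be set side by side between genes. Of 242 such rows in the table, 228 held values and 117 of these were members. The members were thus chosen by their FPKM in these libraries, and their levels are given as a description. The remaining 111 rows with values were below the threshold, and 2 of them were listed at 0 in all libraries. The members made up 51.3% of the ZNF rows with values, while 53.2% of all 16050 rows with values passed the same threshold, which left 8541 genes for the test.

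The libraries came from porcine oocytes at metaphase II, matured in vitro for 44 h inside their cumulus complexes and collected as 3 oocytes per library. The 2 Control libraries, replicates 1 and 2, had no added Cu, and the 2 Cu libraries, replicates 1 and 3, came from oocytes matured with 25 μg/mL Cu, given as copper sulfate. Ovaries came from a slaughterhouse, and the sources tie no library to an animal. Nothing says that the libraries of a group came from separate culture runs. Groups were taken from the labels, and the libraries are called by them. The direction of these labels is in doubt and nothing measured here settles it, so that higher and lower hold only relative to the labels. Group means by the authors are in the table too, and they take in a further library per group, not analysed here, as well as the libraries used here. The oocyte identity of the libraries was checked first. All 12 oocyte markers passed the threshold. The highest were DPPA3 at 2649 to 3654 FPKM and OOEP at 1006 to 3075 FPKM. The weakest were ZAR1 at 4.56 to 24.9, NLRP5 at 1.88 to 8.70 and FIGLA at 0.96 to 15.4 FPKM. Their medians of 7.42, 3.485 and 2.04 FPKM lay below the 13.77 FPKM of FST, a cumulus marker. In both libraries labelled Cu, 4 of the 12 (33.3%) lay above both Control libraries, as did 25.4% of all tested genes. Of 18 markers of cumulus cells, which surround the oocyte, 12 had values, and they summed to between 11.8 FPKM in Control 1 and 18.1 FPKM in Control 2, with 16.5 and 14.9 FPKM in Cu 1 and Cu 3. FST, at 10.2 to 15.95 FPKM, made up most of that sum, and FST and VCAN (0.49 to 1.43 FPKM) were the 2 that passed the threshold. TNFAIP6 reached 0.97 FPKM in Cu 1 and 0.38 FPKM in Control 1, AMH was listed at 0 in all libraries, and CYP19A1, PTX3 and HSD3B1 were at 0.1 FPKM or below. Cu 1 stood apart from the other libraries, with 9364 genes at 1 FPKM or more against 7923 to 8162.

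The ZNF members were mostly weakly expressed, and together they took 0.234% and 0.228% of all FPKM in Control 1 and 2 and 0.209% and 0.197% in Cu 1 and 3. Both shares in the libraries labelled Cu were thus below both in Control. The median member had 4.57 and 4.22 FPKM in Control 1 and 2, against 5.22 FPKM in Cu 1 and 4.15 FPKM in Cu 3, and these ranges overlap. On the log2(FPKM + 1) scale the mean level of the median member was 2.44, against 3.20 for all tested genes, and 2 members were among the 1000 highest tested genes. In every library 38 to 43 members reached 10 FPKM, and 29 did so in all libraries, while 22 stayed below 2.5 FPKM throughout.

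A few genes carried much of the total. The 10 members with the highest mean level held 51.0% and 47.2% of the members' FPKM in Control 1 and 2 and 39.5% and 43.6% in Cu 1 and 3. The highest was ZNF706, which encodes a very small protein with a single finger (chromosome 4, 35768087 to 35777048; here and below RefSeq positions on Sscrofa11.1, the build named in the submitters' processing notes). ZNF706 had 246 and 163 FPKM in Control 1 and 2, against 168 FPKM in Cu 1 and 182 FPKM in Cu 3. Control 1 was the high library, and the groups overlapped. ZNF79, a KRAB zinc finger gene, had 86.1 and 76.4 FPKM in the Control libraries, against 139.7 FPKM in Cu 1 and 41.4 FPKM in Cu 3, so that its libraries labelled Cu lay on either side of Control. ZNF134 had 54.1, 26.5, 34.2 and 31.2 FPKM in Control 1, Control 2, Cu 1 and Cu 3. ZNF599, a KRAB gene, had 38.1, 32.7, 24.1 and 30.6 FPKM in the same order, with both libraries labelled Cu below Control. ZNF140, another KRAB gene, had 21.5 and 42.6 FPKM in the Control libraries, against 13 FPKM in Cu 1 and 38.8 FPKM in Cu 3. In both ZNF134 and ZNF140 the Control libraries lay far apart and the groups overlapped.

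**Figure D1:**
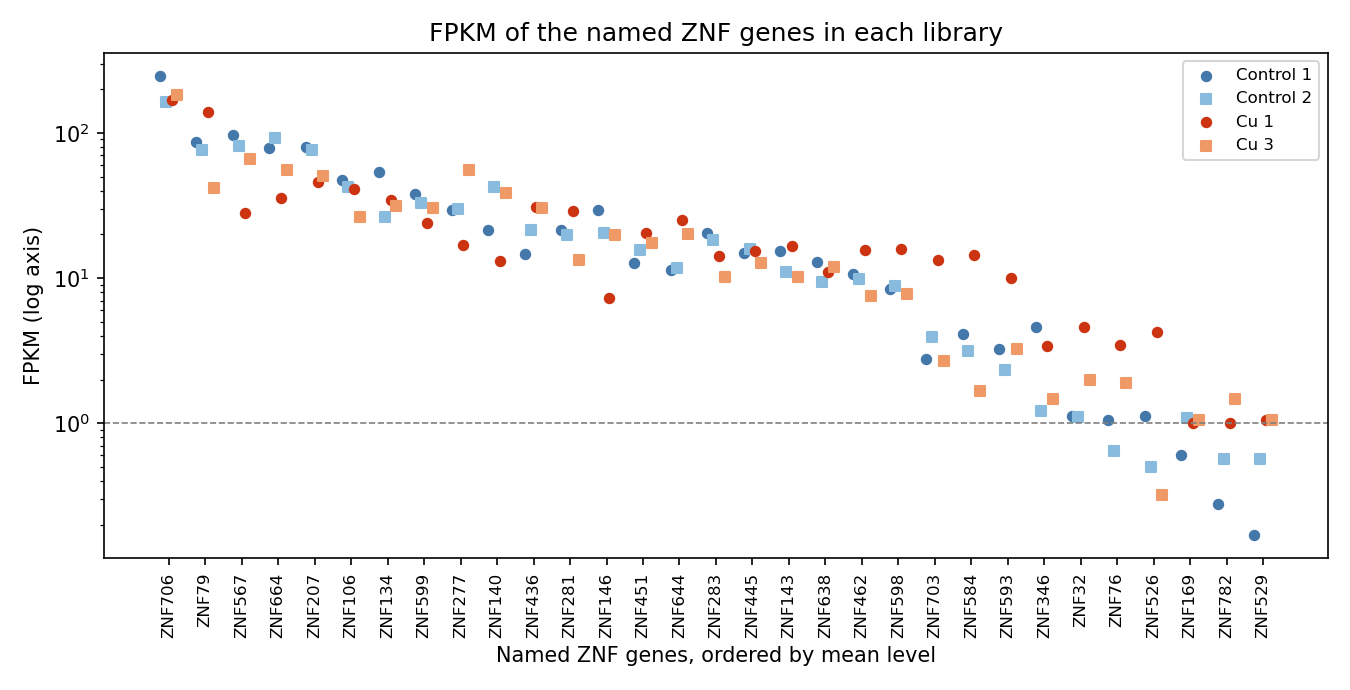
FPKM (log axis) of 31 named ZNF genes, ordered by mean level, with 1 point per library and a dashed line at 1 FPKM. ZNF706 lies at 163 to 246 FPKM, ZNF207 and ZNF664 have both libraries labelled Cu below both Control libraries, and in ZNF584, ZNF703 and ZNF526 Cu 1 lies apart from the other libraries.

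The question of the design is which transcripts differ between oocytes matured with and without added Cu. For the ZNF members the answer was small differences in both directions, none of which passed the test. The test was limma's moderated test on log2(FPKM + 1), with Benjamini-Hochberg adjustment over 8541 genes, and 0 members reached an adjusted p of 0.05. The background was 0% called, and the smallest adjusted p of a member was 0.656. At an unadjusted p of 0.05, 2 members were higher (ZNF644 and ZNF76) and 1 was lower (ZNF664) in the libraries labelled Cu, against 5.58% and 1.43% of all tested genes. This balance depended on the scaling. With each library scaled to a common sum there were 0 higher and 3 lower (ZNF664, ZNF567 and ZNF207), and after quantile normalization 0 higher and 4 lower (ZNF664, ZNF207, ZNF34 and ZNF283). All 8541 tested genes moved the same way. With the common sum 411 were higher and 168 lower, against 477 and 122 with FPKM as deposited. Quantile normalization moved their median log2 fold change from 0.16 to -0.049. For FPKM as deposited, adding a log2 fold change of 1.5 left 0 members in either direction. Among all tested genes 1.76% were higher and 0.117% lower. Log2 fold changes of the members ran from -1.03 to 0.97, and 93 of 117 were within 0.5 of 0. FPKM are shares of a library, so less RNA of a gene per oocyte cannot be told apart from more of the other RNA.

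The members as a group had a median close to 0, below that of all tested genes. The median log2 fold change was 0.058 for the members and 0.16 for all tested genes, a gap of -0.11. Quantile normalization moved the median of all tested genes to -0.049 and that of the members to -0.16, again a gap of -0.11, so the sign of the members' median depended on the scaling. The gap was smaller without Control 1 (-0.0114), without Cu 1 (-0.0203) and without the filter on low values (-0.0295). It was larger without Control 2 (-0.167) and without Cu 3 (-0.211). Between libraries of a group, the members' median level had an SD of 0.144 on the log2 scale. That SD describes the level and does not measure the spread of the gap. Below the median of all genes were 73 of 117 members with FPKM as deposited and 74 after quantile normalization. Both libraries labelled Cu lay above both Control libraries in 17 members and below both in 23, where the background was 25.4% and 13.4% of the tested genes. These counts were 14.5% and 19.7% of the members. After quantile normalization 9 members lay higher and 29 lower, with 16.7% and 22.8% of all tested genes. For a single gene, the two-sided exact permutation test over these 4 libraries cannot give a p below 0.333. Of the 17 higher members, 2 (ZNF529 and ZNF782) reached 1 FPKM only in the libraries labelled Cu, so the threshold alone fixed their direction.

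Lower values were most frequent among the abundant members. Of the 39 members with the highest mean level (3.47 or more on the log2 scale), 24 were lower in the libraries labelled Cu, and 14 lay below both Control libraries while 4 lay above. Among all 3384 tested genes in that range of levels, 44.7% were lower, 18.9% lay below both Control libraries and 21.7% above. In the middle 39 members, 17 (43.6%) were lower, 6 (15.4%) lay below and 4 (10.3%) above both Control libraries, against 28.6%, 8.93% and 27.1% of all tested genes in that range. In the 39 weakest, 10 (25.6%) were lower, 3 (7.69%) lay below and 9 (23.1%) above, close to the 26.3%, 7.54% and 28.8% of all tested genes there. The medians of the log2 fold change were -0.094, 0.063 and 0.19 from the highest to the lowest level, against 0.058, 0.23 and 0.23 for all tested genes in the same ranges. The order of these medians also appeared without Cu 1 (-0.16, -0.093 and 0.045) and without Cu 3 (-0.17, 0.21 and 0.36). All tested genes in these ranges had -0.045, 0.025 and 0.019 without Cu 1, and 0.16, 0.44 and 0.43 without Cu 3. After quantile normalization the members had -0.30, -0.20 and -0.039, against -0.10, -0.038 and 0.020 for all tested genes. From the authors' group means, the members had -0.062, -0.012 and 0.10, against 0.047, 0.17 and 0.17. These fits share libraries, so they are not independent of each other. The level that orders these members is from the same libraries as the fold changes, and the added 1 makes the fold changes of weak genes smaller.

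**Figure D2:**
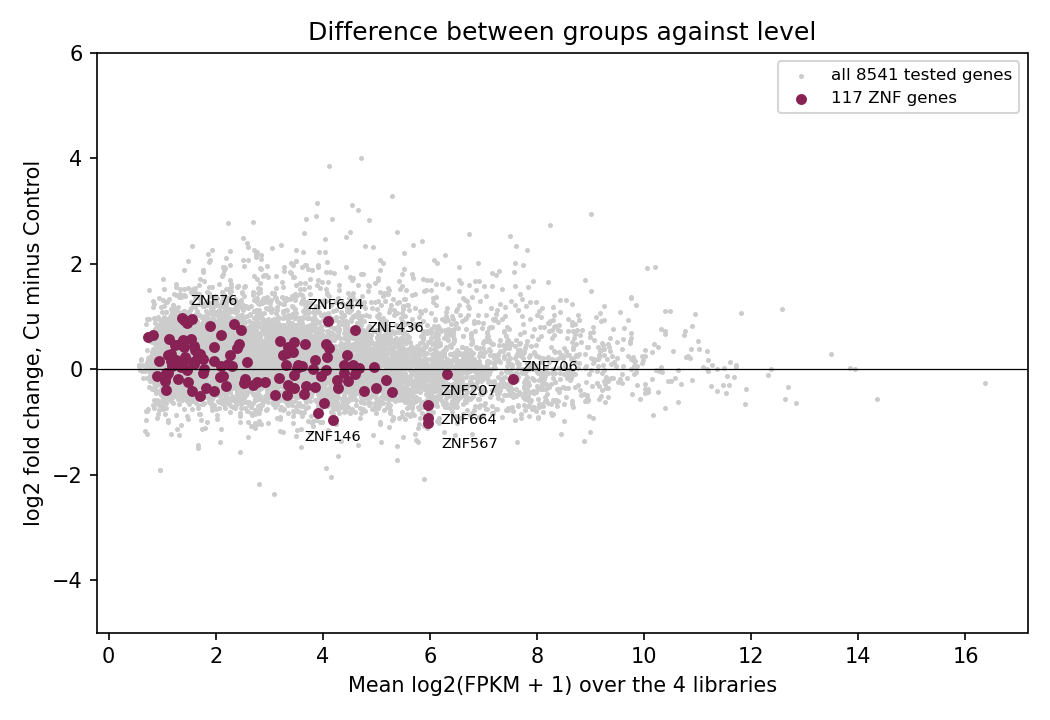
Log2 fold change (Cu minus Control, on log2(FPKM + 1)) against the mean log2(FPKM + 1) over the 4 libraries for 8541 tested genes in grey and the 117 ZNF genes in colour. ZNF207, ZNF664 and ZNF567 lie close together at about 6 on the level axis with fold changes of -0.68, -0.92 and -1.03.

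Of the 5 members with the smallest p among those below both Control libraries, 3 were also among the 10 most abundant. ZNF664 (chromosome 14, 29031603 to 29068922) had 78.6 and 91.6 FPKM in the Control libraries, against 35.3 FPKM in Cu 1 and 55.7 FPKM in Cu 3. The log2 fold change was -0.92 (standard error 0.34, adjusted p = 0.656 by limma), between -1.24 and -0.60 with each library left out. The authors' means of ZNF664, with the further libraries included, were 60.9 FPKM for Control and 53.6 FPKM for Cu. ZNF207 encodes BuGZ, a protein that binds microtubules and the kinetochore protein BUB3 and takes part in spindle assembly (chromosome 12, 42576534 to 42602789). Its levels were 80.0 and 76.0 FPKM in the Control libraries, against 46.2 FPKM in Cu 1 and 50.4 FPKM in Cu 3, so both groups were tight and did not overlap. The log2 fold change of ZNF207 was -0.68 (standard error 0.29, adjusted p = 0.708), and it stayed between -0.74 and -0.62 with each library left out. The authors' means of ZNF207 were 73.0 and 51.6 FPKM.

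ZNF567, a KRAB gene (chromosome 6, 45709663 to 45738030), had 96.3 and 81.7 FPKM in the Control libraries, against 28.0 FPKM in Cu 1 and 65.6 FPKM in Cu 3. Its fold change was the largest of the members (-1.03, standard error 0.45, adjusted p = 0.708), and without Cu 1 it was -0.43. ZNF146, also called OZF, a protein made up almost wholly of fingers (chromosome 6, 45520885 to 45603213), had 29.4 and 20.6 FPKM in the Control libraries, against 7.28 FPKM in Cu 1 and 19.7 FPKM in Cu 3. Cu 1 again was the low library, and Cu 3 lay just below Control 2. The log2 fold change of ZNF146 was -0.97 with all libraries and -0.31 without Cu 1, and the authors' means, with the further libraries included, were 21.5 FPKM for Control and 21.7 FPKM for Cu. ZNF283 had 20.6 and 18.3 FPKM in the Control libraries, against 14.2 FPKM in Cu 1 and 10.1 FPKM in Cu 3. Its fold change on the log2 scale was -0.65 (standard error 0.35), and the groups did not overlap. The other members below both Control libraries were ZNF34, ZNF182, ZNF609, ZNF449, ZNF106, ZNF572, ZNF599, ZNF24, ZNF389, ZNF300, ZNF577, ZNF2, ZNF45, ZNF507, ZNF7, ZNF527, ZNF215 and ZNF407.

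Among the 17 members above both Control libraries, ZNF644 had the smallest p. It encodes a partner of the histone H3 lysine 9 methyltransferases G9a and GLP (chromosome 4, 125740325 to 125856188). ZNF644 had 11.3 and 11.8 FPKM in the Control libraries, against 25.1 FPKM in Cu 1 and 20.2 FPKM in Cu 3, and here both groups were tight. The log2 fold change was 0.91 (standard error 0.33, adjusted p = 0.656 by limma), between 0.76 and 1.06 with each library left out. The authors' means of ZNF644 were 13.8 FPKM for Control and 21.4 FPKM for Cu. ZNF436, a KRAB gene, had 14.6 and 21.6 FPKM in the Control libraries, against 30.7 FPKM in Cu 1 and 30.1 FPKM in Cu 3. Its fold change on the log2 scale was 0.74 (standard error 0.35). Like ZNF644 it lay at a moderate level with close agreement of the libraries labelled Cu.

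Most of the remaining higher members were weak. ZNF76, a relative of the promoter-binding activator ZNF143, had 1.06 and 0.64 FPKM in the Control libraries, against 3.48 FPKM in Cu 1 and 1.90 FPKM in Cu 3 (log2 fold change 0.97, standard error 0.39). ZNF143 itself had 15.4, 11.02, 16.6 and 10.2 FPKM in Control 1, Control 2, Cu 1 and Cu 3, with both groups covering the same range. ZNF32 had 1.13 and 1.11 FPKM in the Control libraries, against 4.57 FPKM in Cu 1 and 1.98 FPKM in Cu 3. ZNF782 had 0.28 and 0.57 FPKM in the Control libraries, against 1.01 FPKM in Cu 1 and 1.47 FPKM in Cu 3. The others were ZNF592, ZNF529, ZNF671, ZNF317, ZNF438, ZNF521, ZNF451, ZNF471, ZNF366, ZNF583, ZNF566 and ZNF81. Of the 17, 3 (ZNF644, ZNF436 and ZNF451) had a Control mean of 10 FPKM or more, against 15 of the 23 lower members. The Control mean enters the fold change, which favours a high Control mean among lower members by construction. All tested genes leaned the same way. In the level range of the top 39 members 18.9% lay below and 21.7% above both Control libraries. In that of the weakest 39 it was 7.54% and 28.8%.

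Members known for roles outside promoter binding were followed as a list of 11 genes on RNA, ribosomes and the spindle. Of these, 9 had values and 8 were members, ZNF706 among them, of which 4 were higher, 4 lower and 0 passed an adjusted p of 0.05 or an unadjusted p of 0.05. ZNF207 and ZNF106 (25% of the 8) lay below both Control libraries and none lay above, against 13.4% and 25.4% of all tested genes. With 8 genes these shares rest on very few. ZNF106, an RNA-binding protein, had 47.3 and 42.1 FPKM in the Control libraries, against 41.2 FPKM in Cu 1 and 26.4 FPKM in Cu 3. ZNF638, a large RNA-binding nuclear protein also known for silencing unintegrated retroviral DNA, was steady at 12.9, 9.42, 11.05 and 11.98 FPKM in Control 1, Control 2, Cu 1 and Cu 3. ZNF277 had 29.5 and 29.9 FPKM in Control, and Cu 1 at 16.9 and Cu 3 at 55.3 FPKM fell on opposite sides. ZNF593, a factor of large ribosomal subunit assembly, had 3.27 and 2.34 FPKM in the Control libraries, against 9.93 FPKM in Cu 1 and 3.23 FPKM in Cu 3. ZNF598, the ubiquitin ligase that senses collided ribosomes, had 8.44 and 8.84 FPKM in the Control libraries, against 15.9 FPKM in Cu 1 and 7.74 FPKM in Cu 3. In both of these ribosome genes Cu 1 alone was high, and Cu 3 lay at or below the higher Control library. ZNF346, which binds double-stranded RNA, had 4.57 and 1.21 FPKM in the Control libraries, against 3.43 FPKM in Cu 1 and 1.48 FPKM in Cu 3. ZNF622, another ribosome assembly factor, stayed below the threshold at 0.13 to 0.93 FPKM.

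A second list named 21 ZNF genes of chromatin and transcription complexes. Of 19 with values, 11 were members, with 7 higher and 4 lower. Of the 11, 4 (36.4%) lay above and 0 below both Control libraries, against 25.4% and 13.4% of all tested genes. The list median was 0.14, which turned to -0.15 after quantile normalization. ZNF281, a factor of pluripotent cells, had 21.6 and 19.8 FPKM in the Control libraries, against 28.9 FPKM in Cu 1 and 13.2 FPKM in Cu 3. ZNF451, a SUMO ligase, had 12.6 and 15.5 FPKM in the Control libraries, against 20.3 FPKM in Cu 1 and 17.6 FPKM in Cu 3, which did not overlap (log2 fold change 0.41, standard error 0.34). ZNF462 had 10.7 and 9.91 FPKM in the Control libraries, against 15.7 FPKM in Cu 1 and 7.5 FPKM in Cu 3. Only ZNF644 and ZNF76 of this list reached an unadjusted p of 0.05.

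Of 5 ZNF genes known for heterochromatin and imprinting, 3 had values and only ZNF445 was a member. ZNF445 protects genomic imprints in the early embryo together with ZFP57 (chromosome 13, 27748437 to 27783348). It had 14.8 and 15.9 FPKM in the Control libraries, against 15.3 FPKM in Cu 1 and 12.7 FPKM in Cu 3, and the groups overlapped. The log2 fold change of ZNF445 was -0.13 (standard error 0.34, adjusted p = 0.944 by limma). ZNF10, the KRAB protein on which the domain was first studied, was at 0.25 to 0.52 FPKM, and ZNF202 was at 0.48 FPKM or below.

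A further list took in the machinery that KRAB proteins recruit and other silencing and methylation factors, such as DPPA3. Most of its tested genes had a higher mean level than the median ZNF member, while CBX5, SMARCAD1 and TRIM24 had a lower one. Of 22 genes listed, 20 had values and 19 were tested. Their median log2 fold change was 0.25, with 12 higher and 7 lower, and 6 (31.6%) lay above and 2 (HDAC1 and TRIM33, 10.5%) below both Control libraries, near the 25.4% and 13.4% of all tested genes. None passed an unadjusted or an adjusted p of 0.05, and the median was 0.0049 after quantile normalization. DPPA3, a protector of maternal methylation, and the maintenance methyltransferase DNMT1 had the highest levels, with DNMT1 at 2986, 3304, 3065 and 2671 FPKM in Control 1, Control 2, Cu 1 and Cu 3. The next were PPHLN1 of the HUSH silencing complex at 189 to 338 FPKM, MORC3 at 28.5 to 53.6 FPKM and the HP1 protein gene CBX3 at 37.3 to 53.9 FPKM. TRIM28, the corepressor itself, had 14.5 and 16.4 FPKM in the Control libraries, against 34.8 FPKM in Cu 1 and 11.99 FPKM in Cu 3, on both sides of Control. SETDB1 had 8.76 and 10.7 FPKM in the Control libraries, against 18.7 FPKM in Cu 1 and 12.2 FPKM in Cu 3. HDAC1 had 10.2 and 11.7 FPKM in the Control libraries, against 6.72 FPKM in Cu 1 and 5.54 FPKM in Cu 3 (log2 fold change -0.75, standard error 0.35). HDAC2, the close relative of HDAC1, went the other way, with 7.28 and 10.63 FPKM in the Control libraries and 15.1 and 12.5 FPKM in Cu 1 and Cu 3 (log2 fold change 0.59, standard error 0.37). The HP1 genes CBX1, CBX3 and CBX5 all lay above both Control libraries, with log2 fold changes of 0.35, 0.31 and 0.40 (standard errors 0.37, 0.32 and 0.36). After quantile normalization these fold changes were 0.089, 0.175 and 0.124. CBX1 and CBX5 were named after their values were seen, as were TRIM28, SETDB1, HDAC1, HDAC2, SMARCAD1 and TRIM24.

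The libraries labelled Cu differed from each other more than the Control libraries did. Between Cu 1 and Cu 3 the median absolute difference of the members was 0.44 on the log2 scale, and 26 of 117 members (22.2%) differed by 1 or more. Between the Control libraries it was 0.28, and 3 members (2.56%) differed by 1 or more. All tested genes had the same pattern, with 24.7% and 4.75% past 1. Pearson's correlation across the 117 members (genes, not replicates) was 0.964 between the Control libraries and 0.849 between Cu 1 and Cu 3. For Cu 3 the correlation was 0.945 against Control 1 and 0.963 against Control 2, both higher than against Cu 1.

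In 17 of the 26 members Cu 1 was the higher one, and in 9 it was the lower. The 17 were mostly weak genes with a median Control level of 2.195 FPKM, and in 16 of them Cu 1 lay above both Control libraries. ZNF584 had the largest gap, with 14.4 FPKM in Cu 1 and 1.67 FPKM in Cu 3, and 4.13 and 3.15 FPKM in Control. ZNF526 had 4.28 FPKM in Cu 1 and 0.32 FPKM in Cu 3, and 1.13 and 0.50 FPKM in Control. ZNF703, a transcriptional corepressor, had 13.3 FPKM in Cu 1 and 2.67 FPKM in Cu 3, and 2.75 and 3.95 FPKM in Control. In all of these, Cu 3 was below both Control libraries and Cu 1 above both. The 9 with Cu 1 lower had a median Control level of 24.2 FPKM, and in all 9 Cu 1 lay below both Control libraries. ZNF367, ZNF181, ZNF662, ZNF22 and ZNF383 belonged to them, besides ZNF567, ZNF277, ZNF140 and ZNF146.

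**Figure D3:**
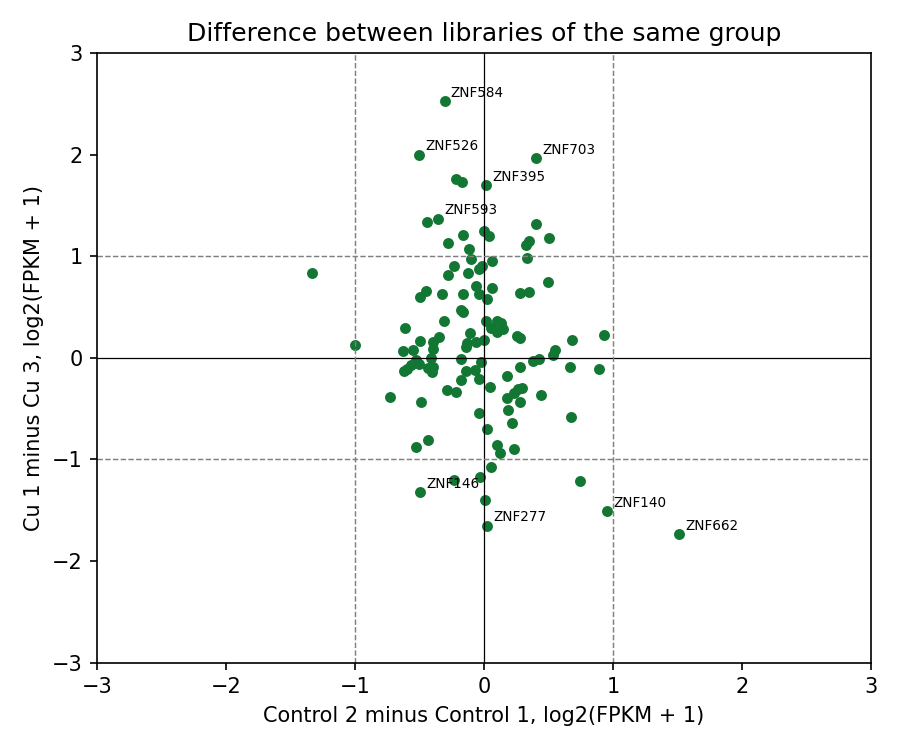
Difference between the 2 libraries labelled Cu (Cu 1 minus Cu 3) against that between the 2 Control libraries (Control 2 minus Control 1) for the 117 ZNF genes, on log2(FPKM + 1), with dashed lines at 1 and -1. The vertical spread is wider than the horizontal one, with 26 genes past the horizontal lines and 3 past the vertical ones.

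The number of calls turned on which library labelled Cu was kept. Without Cu 3, with Cu 1 assumed to vary like the Control libraries, 16 members passed at an adjusted p of 0.05 by limma, against 20.5% of all tested genes. Of these, 12 were higher and 4 lower (ZNF567, ZNF664, ZNF146 and ZNF140), against 17.4% and 3.1% of all genes. The 12 were ZNF644, ZNF513, ZNF395, ZNF703, ZNF584, ZNF593, ZNF212, ZNF32, ZNF329, ZNF592, ZNF76 and ZNF526. Without Cu 1, 1 member passed (ZNF34, log2 fold change -1.38, adjusted p = 0.043 in limma's test), against 2.18% of all genes (1.56% higher and 0.621% lower). ZNF34 had 17.0 and 21.5 FPKM in the Control libraries, against 15.6 FPKM in Cu 1 and 6.69 FPKM in Cu 3.

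More ZNF genes were detected in Cu 1 than in the other libraries. Of the 228 ZNF rows with values, 48.2% and 48.7% reached 1 FPKM in Control 1 and 2, 57.5% in Cu 1 and 49.1% in Cu 3. Over all rows with values the shares were 49.4%, 50.9%, 58.3% and 50.6%. Of the 23 rows that reached 1 FPKM in a single library and so were not members, 17 did so in Cu 1, 3 in Cu 3, 2 in Control 2 and 1 in Control 1. Among all 117 members, 95 reached 1 FPKM in every library. Just inside the threshold were ZNF782, ZNF169 and ZNF529, whose second highest values were 1.01, 1.05 and 1.05 FPKM. Just outside were ZNF114, with 1.80 FPKM in Control 1 and 0.96 FPKM in Cu 1, ZNF333, with 2.21 FPKM in Cu 1 and 0.96 FPKM in Control 2, and ZNF524, with 1.5 FPKM in Cu 3 and 0.96 FPKM in Cu 1.

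ZNF genes are known to have multiplied by local duplication, so that many lie side by side in the genome. All 117 members matched a RefSeq gene of Sscrofa11.1 by identifier and symbol. Chromosome 6 held 41 of them, or 35.0%, as against 10.1% of all tested genes and 32.5% of the ZNF rows with values. Chromosomes 1, 3 and 14 followed with 11, 10 and 10 members. With a gap of at most 250 kb between neighbours, 51 members had another member beside them and 66 stood alone. There were 5 groups of 3 or more, 4 of them on chromosome 6. The members on chromosome 6 had a median log2 fold change of 0.019 and the other 76 members 0.061, while all tested genes on chromosome 6 had 0.23. Their median level was the same as that of the others, 2.44 on the log2 scale.

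The largest group held 11 members on chromosome 6 between 45520885 and 46468679, in the order ZNF146, ZNF565, ZNF567, ZNF529, ZNF260, ZNF566, ZNF568, ZNF829, ZNF383, ZNF527 and ZNF570. Neighbours differed widely in level, from a median of 0.81 FPKM in ZNF529 to 73.6 FPKM in ZNF567. In the group, 8 members were lower and 3 higher in the libraries labelled Cu, against 51 lower and 66 higher of all 117 members. Of the 11, 3 lay below (ZNF146, ZNF567 and ZNF527) and 2 above (ZNF529 and ZNF566) both Control libraries. Over all tested genes 13.4% lay below and 25.4% above both. ZNF529 reached 1 FPKM only in the libraries labelled Cu, so the threshold alone fixed its direction. Cu 1 was the lowest of the libraries in 7 of the 11, against 30 of all 117 members, these 11 included. ZNF829, for example, had 10.02 and 11.96 FPKM in the Control libraries, against 5.22 FPKM in Cu 1 and 10.6 FPKM in Cu 3. A second group of 5 on chromosome 6 between 60638748 and 60903923 (ZNF667, ZNF583, ZNF582, ZNF471 and ZNF470) had 4 members higher and 1 lower. Reads shared by similar copies could have been divided between neighbours, so single values in these groups are uncertain.

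**Figure D4:**
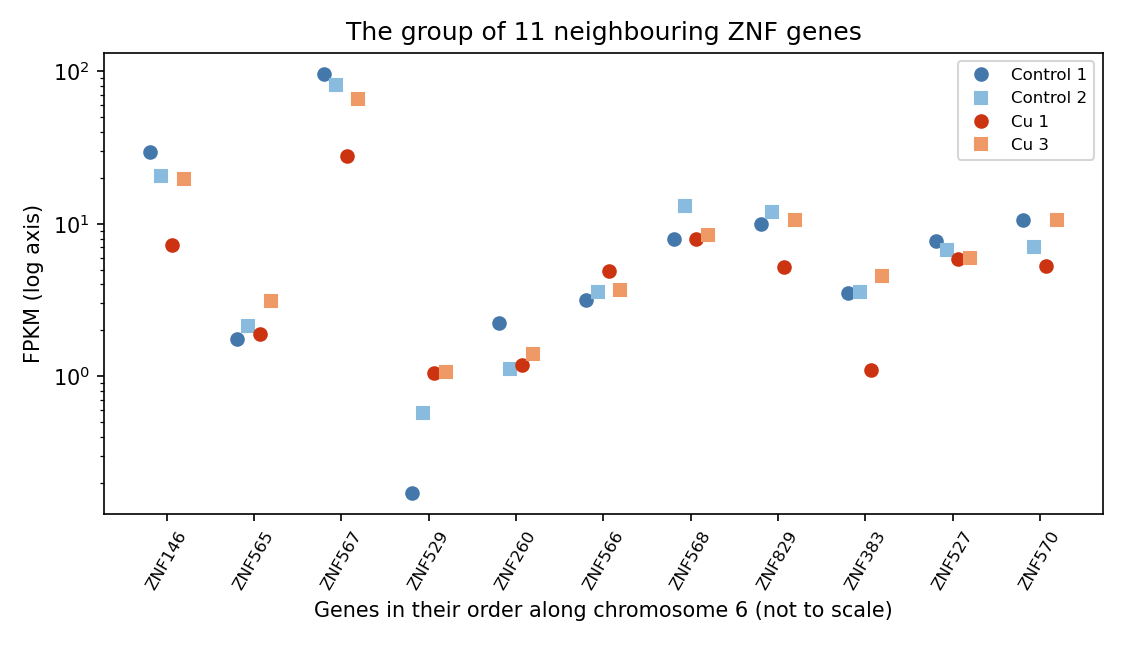
FPKM (log axis) of the 11 neighbouring ZNF genes on chromosome 6 in their order along the chromosome, 1 point per library. ZNF567 is the highest at 28.0 to 96.3 FPKM and ZNF529 the lowest at 0.17 to 1.06 FPKM, and Cu 1 is the lowest library in 7 of the 11.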

How the data were processed

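RNA of 4 libraries of 3 porcine oocytes each was amplified by Smart-seq2. The values the authors deposited are FPKM with 2 decimals, and the authors' mean FPKM of each group. The paper's methods name SOAPnuke, HISAT2, Bowtie2 and RSEM. The submitters' processing notes name TopHat2 2.0.13, Cufflinks 2.2.1, Cuffnorm and Cuffdiff with Sscrofa11.1 instead, and the table does not say which produced it. FPKM keep no read numbers, so the depth is unknown and no interval or floor that needs it is given. How reads shared by similar ZNF genes were divided is not known for this table.

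A gene entered the fit with 1 FPKM or above in 2 or more libraries, which left 8541 genes, and log2(FPKM + 1) was compared between groups with limma 3.58.1 in R 4.3.3 (lmFit, eBayes with a variance trend, Benjamini-Hochberg adjustment over all tested genes). The fit was tested on simulated data with equal spread in both groups, unlike these libraries. The simulated differences were absent or larger than that of any member, so the simulation does not cover differences of the members' size. The p-values measure only the spread between these libraries, which may be technical. The p and fold limits are 0.05 and, on the log2 scale, 1.5.

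The members and lists were chosen with earlier results of these data known. Named ZNF genes were the 10 most abundant, the 5 with the smallest p among the non-overlapping in each direction, members of the RNA, ribosome and spindle list and of the imprinting list, the 3 with the largest gap between Cu 1 and Cu 3, the 3 nearest the threshold on either side, and the 5 most abundant of the chromatin and corepressor lists. Others were named to spell out a count, or after their values were seen. Alternatives were a pseudocount of 0.1, no filter, quantile normalization, scaling to a common sum, no variance trend, a fold limit of 1, other levels for the share of rows, the authors' means and leaving out each library.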

Additional observations from a re-analysis of the deposited data

How the results depend on the processing

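No paired analysis was possible because the groups share only replicate number 1. FPKM carry no read numbers, so what depth limits among the weak ZNF genes is unknown, and 2 libraries a group limit every test. At an adjusted p of 0.05 no ZNF member passed with a pseudocount of 0.1, without a filter, without a variance trend or under either scaling. Leaving out 1 library gave 0 to 16 ZNF members and 0 to 1755 of all genes, with the upper ends without Cu 3, and without Cu 1 there were 1 and 186. The cause was not tested. With both p and fold limits, leaving out a library gave 0 to 6 members higher and 0 to 2 lower, and 77 to 741 of all genes higher and 11 to 41 lower. A pseudocount of 0.1 gave 1 member higher (ZNF76, log2 fold change 1.53), with 246 of all genes higher and 24 lower, and a fold limit of 1 gave 375 and 55. Scaling to a common sum gave 18 of all genes lower and quantile normalization 20. Without a filter, ZNF rows below the threshold also entered, and 41 ZNF rows lay above and 28 below both Control libraries. The larger numbers came from those added rows. Non-overlapping members numbered 9 higher after quantile normalization, with 16.7% of all tested genes. With 1 library left out there were 31 to 55 higher and 31 to 47 lower. Fewer libraries overlap less often by construction, so these counts cannot be set beside those from all libraries. The members' median was -0.16 after quantile normalization. ZNF rows at 0.5 FPKM or more made up 59.2% and 61.0% in Control 1 and 2 and 68.9% and 60.1% in Cu 1 and 3, and at 2 FPKM 37.3%, 34.6%, 41.7% and 36.8%.

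The log2 fold change of some named genes changed sign, and not only where it was small (0.75 for ZNF703 with all libraries). ZNF277 was -0.0239 after scaling to a common sum and -0.142 after quantile normalization, and ZNF638 was -0.00795 and -0.176. ZNF169 and ZNF462 were -0.0452 and -0.15 after quantile normalization. Leaving out a library gave both signs for ZNF706 (-0.491 to 0.105), ZNF79 (-0.955 to 0.777), ZNF134 (-0.71 to 0.293), ZNF277 (-0.777 to 0.874), ZNF140 (-1.16 to 0.345), ZNF598 (-0.141 to 0.808), ZNF346 (-0.749 to 0.585) and ZNF638 (-0.148 to 0.263). The same held for ZNF584 (-0.789 to 1.74), ZNF526 (-0.437 to 1.56), ZNF703 (-0.231 to 1.73), ZNF169 (-0.0352 to 0.343), ZNF281 (-0.608 to 0.465), ZNF143 (-0.333 to 0.324) and ZNF462 (-0.409 to 0.562).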

Other observations

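Zinc finger genes outside the ZNF names were read in the same way, and the genes given here were chosen after their values were seen. Of 5 tested ZSCAN genes, whose proteins carry a SCAN domain for pairing, 5 were higher in the libraries labelled Cu, 3 of them (60%) above both Control libraries, against 25.4% of all tested genes, with a median log2 fold change of 0.52, or 0.30 after quantile normalization. ZSCAN25 had 0.39 and 0.37 FPKM in the Control libraries, against 3.77 FPKM in Cu 1 and 4.43 FPKM in Cu 3. Since ZSCAN25 passed the threshold only through the libraries labelled Cu, its direction was fixed and no test is given. The 5 higher genes, the 3 above both Control libraries and the median all include it, so they are not a result about the family. The others above both were ZSCAN12 and ZSCAN16. Of 7 tested KLF genes, Kruppel-like transcription factors, 6 were higher and 1 lower, with a median of 0.20, or 0.020 after quantile normalization. Above both Control libraries lay 3 (42.9%) and below both 1 (14.3%), against 25.4% and 13.4% of all tested genes. With 7 genes these shares rest on very few. KLF4, a factor of pluripotent cells, had 6.80 and 5.03 FPKM in the Control libraries, against 10.6 FPKM in Cu 1 and 17.98 FPKM in Cu 3 (log2 fold change 1.11, standard error 0.41, unadjusted p = 0.035, adjusted p = 0.656 in limma's test). KLF7 went the other way, with 40.4 and 31.3 FPKM in the Control libraries, against 18.9 FPKM in Cu 1 and 25.4 FPKM in Cu 3. Of 17 tested ZBTB genes, which join a BTB domain to their fingers, 12 were higher and 5 lower, and the median was 0.12, or -0.15 after quantile normalization. Of these 17, 5 (29.4%) lay above and 2 (11.8%) below both Control libraries, near the 25.4% and 13.4% of all tested genes. ZBTB21 was 1 of the 2 below, at 23.6 and 25.8 FPKM in the Control libraries, against 13.2 FPKM in Cu 1 and 17.4 FPKM in Cu 3. The 7 tested ZFP genes had 3 higher and 4 lower, with a median of -0.10, or -0.24 after quantile normalization. All 3 tested ZKSCAN genes were higher, with medians of 0.53 and 0.29 on these scales, where all tested genes had 0.16 and -0.049. Above both Control libraries lay 2 of the 3 (66.7%), against 25.4% of all tested genes, and 3 genes are too few to describe a family. Of 10 tested ZNF genes with a letter after the number, 7 were higher and 3 lower, with medians of 0.39 and 0.17. No gene of these families passed at an adjusted p of 0.05 by limma. Leaving ZSCAN25 aside, KLF4 was the only gene of these families at an unadjusted p of 0.05 or less.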
